A study of Mus musculus with 58 samples.

Results

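Gcg and Ttr, the genes for proglucagon and transthyretin, were followed through single cells of the mouse embryonic pancreas between E12.5 and E18.5. They are 2 of the 19699 genes counted and were chosen by name, with no threshold on their values. Their transcripts were read in 4310 of 5760 wells, those that passed minima of 2000 transcripts and 500 genes, with 8 possible doublets (over 5 times the median of the plate) also removed. The cells came from embryos of pregnant mice carrying MIP-GFP, a transgene in which the mouse insulin promoter drives green fluorescent protein, and every group shared that line. Cells were sorted into 384-well plates either as GFP-positive cells (MIP-GFP) or as viable cells without regard to GFP (live). Both sorts were made in each of 7 experiments. EP11 and EP18 sampled E12.5 embryos, EP12 sampled E13.5, EP14 sampled E14.5, both EP10 and EP17 sampled E15.5, and EP16 sampled E18.5. One further E18.5 plate is labelled live but coded P6, and 298 of its 301 cells held insulin transcripts at 1% or more. Among the plates used, every other plate with that code is MIP-GFP and no other live plate has it. Its sort is therefore in doubt, and in sums per experiment it was counted with the live cells of EP16. The labels give no sex, and no label ties wells to single embryos, so a p-value here speaks only of spread from experiment to experiment, which may be technical.

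Proglucagon is the precursor from which alpha cells cut glucagon with the convertase Pcsk2, while Pcsk1 releases the GLP peptides from it in gut cells. Alpha cells arise, like beta cells, from precursors that pass through a Neurog3 and then a Fev stage, and glucagon cells are the first endocrine cells to appear in number. Transthyretin is a secreted carrier of thyroid hormone and, bound to Rbp4, of retinol. It is best known as a product of liver and choroid plexus, and is also made by islet cells.

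Gcg lies on the minus strand of chromosome 2, at chr2:62474530-62483653 in GRCm38.p6. The 250 bases before its start (chr2:62483654-62483903, minus strand, from RefSeq) are shown because Irx1 and Irx2, the genes whose levels followed Gcg most closely (described further on), encode homeodomain factors. Capitals mark TAAT and its reverse complement ATTA, the core letters bound by many homeodomain proteins.
Gcg: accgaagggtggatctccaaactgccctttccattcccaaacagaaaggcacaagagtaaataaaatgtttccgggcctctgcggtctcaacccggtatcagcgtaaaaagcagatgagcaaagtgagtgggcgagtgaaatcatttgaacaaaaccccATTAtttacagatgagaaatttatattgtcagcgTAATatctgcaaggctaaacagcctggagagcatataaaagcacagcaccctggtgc
The window held 2 such matches over both strands, and 30.8% of 32851 promoter windows of the same length held at least as many. A match describes the letters only, and no site of a named factor is marked.

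Plates held between 1150013 and 9490716 transcripts, with medians per cell between 6782 and 27218. The counts were corrected by the authors for repeated UMIs, so a gene in a well cannot exceed 1597 transcripts on 14 plates, where 256 UMI sequences exist, or 36909 on the P6-coded plate. Gcg stood at this ceiling in 142 cells and Ttr in 1, so the Gcg level of the strongest cells is a lower limit. Stage is that of the stage label. For 12 libraries, on the MIP-GFP plates of EP11, EP18 and EP16, the title names another stage (E15.5, E15.5 and E14.5). For the live plates of those experiments, title and label name the same stage (E12.5, E12.5 and E18.5).

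Gcg passed 1% of a cell's transcripts in most MIP-GFP cells at E12.5 and in few at later stages. It did so in 261 of 349 MIP-GFP cells of EP11 (74.8%, Wilson 95% interval 70.0% to 79.1%) and in 102 of 173 of EP18 (59.0%, 51.5% to 66.0%). The MIP-GFP share was 11.3% in EP12 (E13.5), 15.2% in EP14 (E14.5), 16.5% in EP10 and 18.4% in EP17 (both E15.5), and 4.39% in EP16 (E18.5). On live plates it ranged from 0.347% (1 of 288 cells, EP10) to 5.14% (11 of 214, EP18), with 2.33% on the P6-coded plate. Both E12.5 MIP-GFP plates thus stood above every other plate, and no live plate reached the later MIP-GFP plates of E13.5 to E15.5.

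The cells that passed 1% carried most of the gene's transcripts on MIP-GFP plates. Glucagon-gated cells, with Gcg at 1% or more and 3 or more times the share of every other hormone, numbered 571 and held between 70.9% and 96.9% of the Gcg transcripts on MIP-GFP plates. Near the 1% line, 88 cells held Gcg between 1% and 2% and 59 cells between 0.5% and 1%. The median MIP-GFP cell held 3.36% and 2.29% Gcg at E12.5 (EP11 and EP18), but 0.0673% in EP12, 0.125% in EP14, 0.0515% in EP10, 0.109% in EP17 and 0.0272% in EP16. The median live cell held at most 0.0143%, on the P6-coded plate, then 0.0108% in EP18, and 0% on both E15.5 plates.

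Ttr was likewise higher in the median MIP-GFP cell of each experiment. The median MIP-GFP cell held 0.736% Ttr in EP11, 0.410% in EP18, 0.177% in EP12, 0.152% in EP14, 0.236% in EP10, 0.273% in EP17 and 0.0989% in EP16. The median live cell held 0.00676% in EP11, 0.0190% in EP18, 0.0198% in EP12, 0.00493% in EP14, 0.0104% in EP10, 0.0984% in EP17, 0.00399% in EP16 and 0.0927% on the P6-coded plate. Every MIP-GFP median lay above the median of the live plate of its own experiment. The tenth of cells richest in Ttr held 30.1% (EP11) and 43.7% (EP18) of the Ttr transcripts on the E12.5 MIP-GFP plates, and 37.9% (EP14) to 45.6% (EP16) on the later ones. The tenth richest in Gcg held 18.6% and 38.2% of the Gcg transcripts in EP11 and EP18, and 73.6% (EP14) to 92.2% (EP16) on the later MIP-GFP plates. Ttr reached 1% of transcripts in 221 cells, and 198 of these were glucagon-gated, against 5 insulin-gated.

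**Figure D1:**
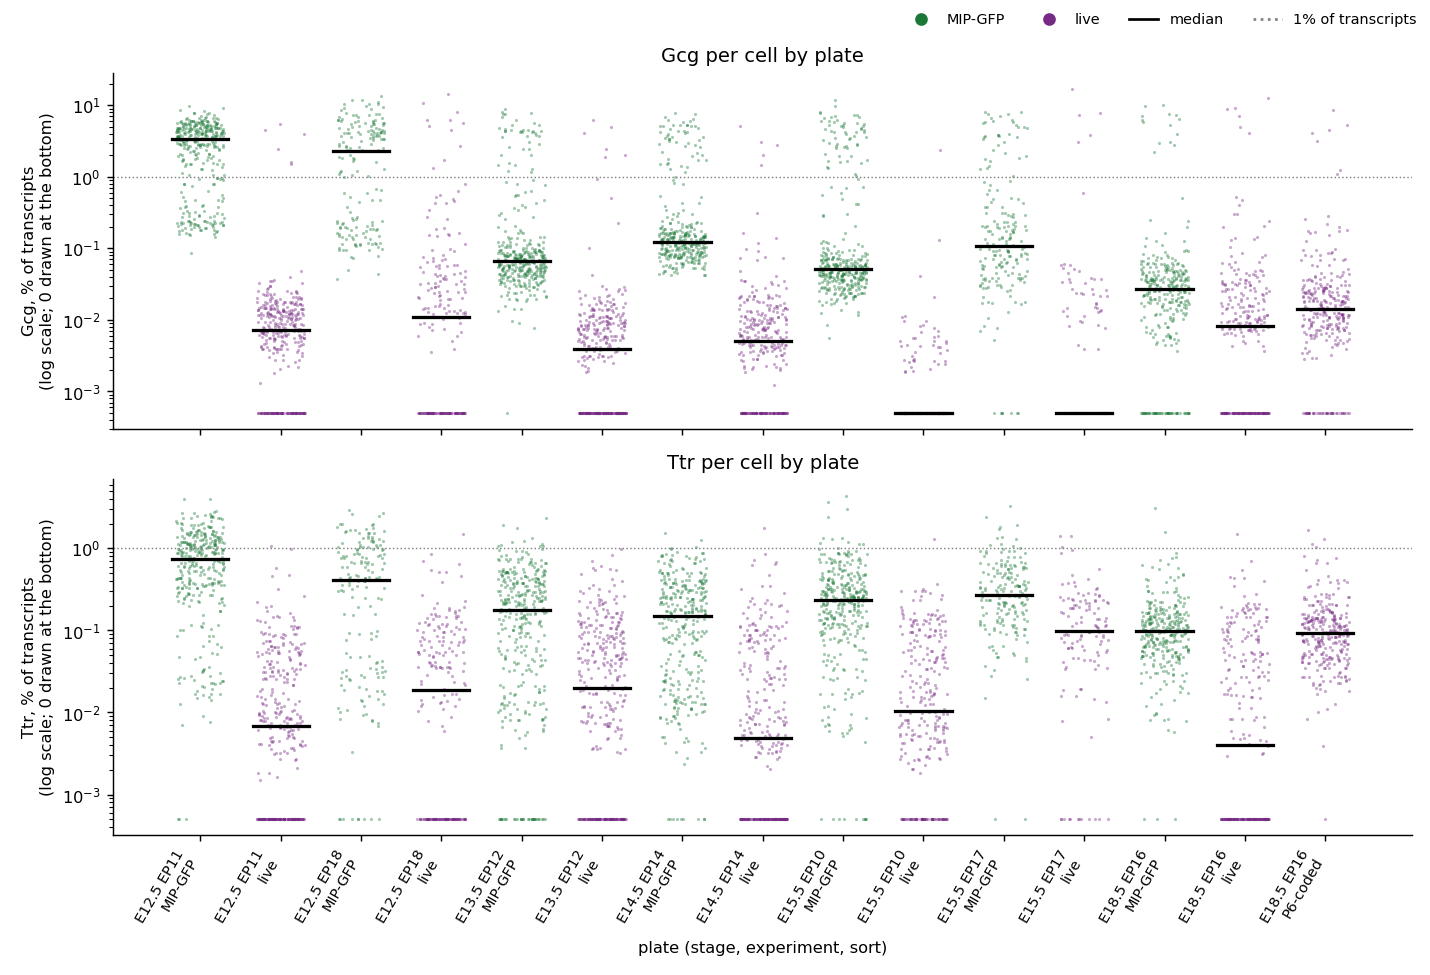
Gcg (top) and Ttr (bottom) as percent of each cell's transcripts on a log scale, by plate, with MIP-GFP plates left of the live plates of the same experiment. Each point is a cell, the black bar is the median and cells without a transcript are drawn at the bottom. Both E12.5 MIP-GFP plates have their Gcg median above 1% of transcripts and all Ttr medians lie below 1%.

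Both genes were higher in MIP-GFP sums. Per experiment, Gcg took 3.16% of all transcripts in MIP-GFP cells of EP11, 2.92% in EP18, 0.648% in EP12, 0.741% in EP14, 0.803% in EP10, 0.776% in EP17 and 0.280% in EP16. In live cells it took 0.0852%, 0.305%, 0.0619%, 0.0644%, 0.00627%, 0.213% and 0.169% in the same order, and 0.117% on the P6-coded plate. Ttr took 0.871%, 0.585%, 0.282%, 0.232%, 0.332%, 0.389% and 0.146% in MIP-GFP cells of those experiments. In live cells it took 0.0389%, 0.0723%, 0.0738%, 0.0607%, 0.0484%, 0.172% and 0.0594%. Each MIP-GFP plate was above its live plate in 7 of 7 experiments for both genes, but Ttr on the P6-coded plate, at 0.149%, was level with the EP16 MIP-GFP plate. With stage as covariate, edgeR's quasi-likelihood test gave a log2 difference of 2.96 ± 0.68 (SE; adjusted p = 0.00446) for Gcg and 2.01 ± 0.46 (adjusted p = 0.00431) for Ttr, both higher in MIP-GFP cells. That fit did not pair the sorts by experiment, and the sizes from a paired fit are given at the end. Of 14784 genes tested, 42.3% were called in this comparison, 18.9% higher and 23.4% lower, so being called does not set the pair apart. In sums over cells, more cells of a type and more RNA per cell cannot be told apart.

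Over the stages of the label, Gcg in MIP-GFP sums fell by 0.50 ± 0.12 log2 per day (edgeR, adjusted p = 0.0320; 11.9% of 13508 genes called, 6.25% higher and 5.63% lower). Ttr had a slope of -0.29 ± 0.10 (adjusted p = 0.0932). The direction rests on the stage label: with the stage named in the titles the Gcg slope was 1.00 per day (adjusted p = 1.00), and without the plates whose stages conflict it was 0.25 (adjusted p = 0.701). The Gcg call was also lost without EP10 (-0.50), EP11 (-0.45), EP16 (-0.59), EP17 (-0.50) or EP18 (-0.44). In live sums the slopes were -0.05 ± 0.23 for Gcg (adjusted p = 0.918) and 0.23 ± 0.14 for Ttr (adjusted p = 0.355), with 5.39% of 14092 genes called, 4.22% higher and 1.18% lower. The live sums include the P6-coded plate. Without it, 217 of 13931 genes were called higher and 38 lower.

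How far these levels mark cells that make the transcripts was read from cells that should lack them. Clusters were built without Gcg, Ttr and the other hormone genes and named by fixed markers. Immune-like cells on the 4 MIP-GFP plates that held at least 10 of them carried Gcg at 590 to 2223 CPM (the gene's transcripts over all transcripts summed, in the usual scaling), against 16.4 to 247 CPM on 4 live plates. A Gcg transcript was found in 98.0% to 100% of immune-like cells on MIP-GFP plates, with median depths of 9934 to 22236 transcripts per cell. When all cells were thinned to 2000 transcripts the share was 65.3% to 100%, against at most 33.7% of non-epithelial cells on live plates. Of 245 cells in the larger immune-like cluster, 5 were glucagon-gated, and they were not taken out of these values. Gcg in other cells of MIP-GFP plates must therefore be read against this level.

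The Gcg levels of beta-like and precursor-like clusters on MIP-GFP plates overlapped that range. Beta-like cells carried 394 to 1656 CPM, Fev precursor-like cells 567.6 to 1218 and Neurog3 precursor-like cells 491 to 2503. Alpha-like cells on the same kind of plate carried 16750 to 56900 CPM. A cluster of 321 cells, mostly of the EP11 MIP-GFP plate and 86.9% glucagon-gated, held Gcg at 36010 CPM and Ttr at 10050 CPM. It raised 6 of 8 alpha markers but stayed unnamed, because hepatocyte genes such as Fgb were among its leading genes. Ttr separated the classes in another way. It stood at 4471 to 8552 CPM in alpha-like cells of MIP-GFP plates, 1160 to 2960 in beta-like, 2177 to 2535 in Fev precursor-like and 186 to 566 in Neurog3 precursor-like cells, against 63.4 to 253 in immune-like cells.

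The non-endocrine epithelium held Ttr above the non-epithelial level, and Gcg within its range. On live plates, acinar-like cells, the enzyme-secreting lineage, carried 889 to 1614 CPM of Ttr and duct-like cells 160 to 1047, against at most 84.3 in non-epithelial cells (mesenchyme-, mesothelium-, immune- and endothelium-like). These classes do not overlap. For Gcg the values were 9.76 to 70.6 CPM in acinar-like and 14.9 to 182 in duct-like cells, against 11.2 to 188 in non-epithelial cells of the same plates, and these ranges overlap. The E12.5 live plates had too few acinar- or duct-like cells, and their non-epithelial cells held 93.9 (EP11) and 744 CPM (EP18). Of 179 cells in the mesenchyme-like cluster found mostly on those plates, 2 were glucagon-gated. Unnamed clusters were not in these classes. One of 165 cells, mostly of the EP11 live plate, raised 3 of 10 acinar markers and held Ttr at 518 CPM and Gcg at 147. Another of 98 cells, mostly of the EP18 live plate, had Sox9 among its leading genes and 3 glucagon-gated cells. It held Ttr at 706 CPM and Gcg at 989. Non-epithelial cells of those live plates held Ttr at 21.3 CPM (EP11) and 84.3 (EP18). Per 100 Gcg transcripts, acinar- and duct-like cells of the EP12 live plate held 1530 Ttr transcripts, against 28.9 in non-epithelial cells of the same plate. Over 5 live plates the values were 576 (EP16) to 5988 (EP10) in acinar- and duct-like cells, against 14.6 (EP16) to 405 (EP10) in non-epithelial cells.

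Within experiments, Ttr in acinar- and duct-like cells differed from that in non-epithelial cells by 4.07 ± 0.80 (SD over 5 experiments) on the scale log2(CPM + 10), with CPM taken over transcripts other than the hormone genes and Ttr. It was higher in 5 of 5 experiments, with an exact sign-flip permutation p of 0.0625, two-sided, the smallest 5 experiments allow. On live plates alone the difference was 4.51 ± 0.65. Gcg differed by -0.58 ± 0.62 and was higher in 1 of 5 experiments (exact permutation p = 0.125). On live plates alone it was 0.19 ± 0.27, with the sign turned.

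**Figure D2:**
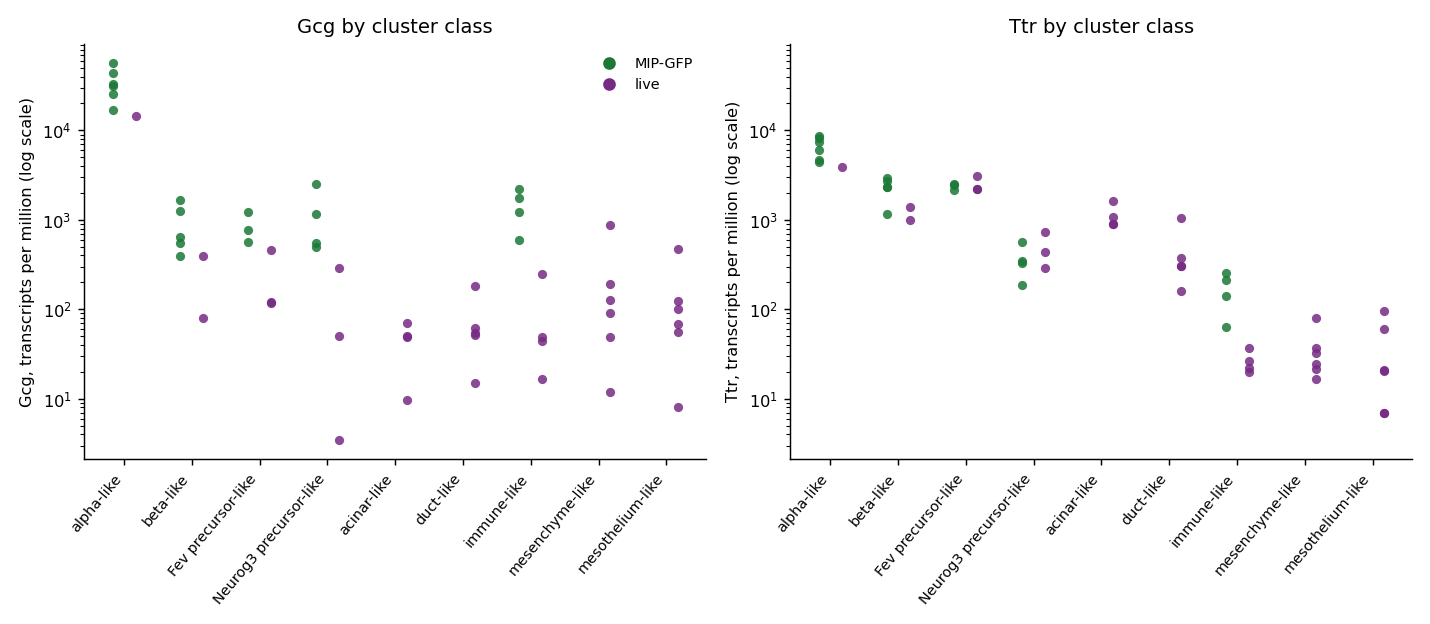
Gcg (left) and Ttr (right) in CPM on a log scale, by cluster class. Each point is the sum over at least 10 cells of a class on 1 plate, with MIP-GFP plates left of live plates. Immune-like Gcg on MIP-GFP plates lies at 590 to 2223 CPM, while Ttr in acinar-like cells lies at 889 to 1614 CPM, above all non-epithelial points.

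Ttr differed between endocrine stages defined by other genes. Neurog3-gated cells had at least 2 Neurog3 transcripts, 0 Fev and no hormone at 1%, and Fev-gated cells the converse. Both are precursor stages named for transcription factors. Fev-gated cells carried 3427 CPM of Ttr in EP11, 2940 in EP12, 2362 in EP14 and 2701 in EP10. Neurog3-gated cells carried 533, 477, 409 and 269 in the same experiments. No experiment overlapped, and the log2 difference was 2.77 ± 0.16 (SE; edgeR, adjusted p = 2.65e-06; 34.1% of 10399 genes called, 16.9% higher and 17.3% lower). On MIP-GFP plates alone it was 3.20 ± 0.25 (edgeR, adjusted p = 0.00105). Gcg, which these gates hold under 1%, stood at 4620 CPM in Fev-gated cells of EP11, 1128 in EP12, then 1376 in EP14 and 717 in EP10. Neurog3-gated cells held 806, 242, 388 and 162 CPM in the same order. These sums mix plates of unlike background. On single MIP-GFP plates, Gcg in Fev-gated cells stood at 4909 CPM in EP11, 1220 in EP12, 1723 in EP14 and 871 in EP10, against 2223, 590, 1169 and 553 in non-epithelial cells of the same plate. On live plates it was 545 CPM in EP12, against 53.7 in non-epithelial cells, and 61.6 in EP14, against 106. Cells rich in Gcg raised these sums. As percent of transcripts, the MIP-GFP sums were 0.491% in EP11, 0.122% in EP12, 0.172% in EP14 and 0.0871% in EP10. The median Fev-gated cell there held 0.383%, 0.0593%, 0.110% and 0.0421%. On the EP12 live plate the sum was 0.0545% and the median cell held 0.00666%.

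Glucagon-gated cells carried more Ttr than either later precursors or insulin cells. Ttr stood at 10310 CPM in glucagon-gated cells of EP11, 8848 in EP18, 6512 in EP12, 4924 in EP14, 8432 in EP10, 11160 in EP17 and 8193 in EP16. In insulin-gated cells it stood at 2682 in EP12, 2354 in EP14, 2234 in EP10, 2837 in EP17 and 1262 in EP16, with fewer than 10 such cells at E12.5. The lowest glucagon-gated value lies above the highest insulin-gated value. The log2 difference between these gates was 1.64 ± 0.15 (edgeR with experiment as block, adjusted p = 2.40e-08; 32.1% of 10715 genes called, 15% higher and 17% lower). Against Fev-gated cells it was 1.40 ± 0.10 (adjusted p = 0.000234; 10.6% of 11114 genes called, 4.59% higher and 6.03% lower).

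**Figure D3:**
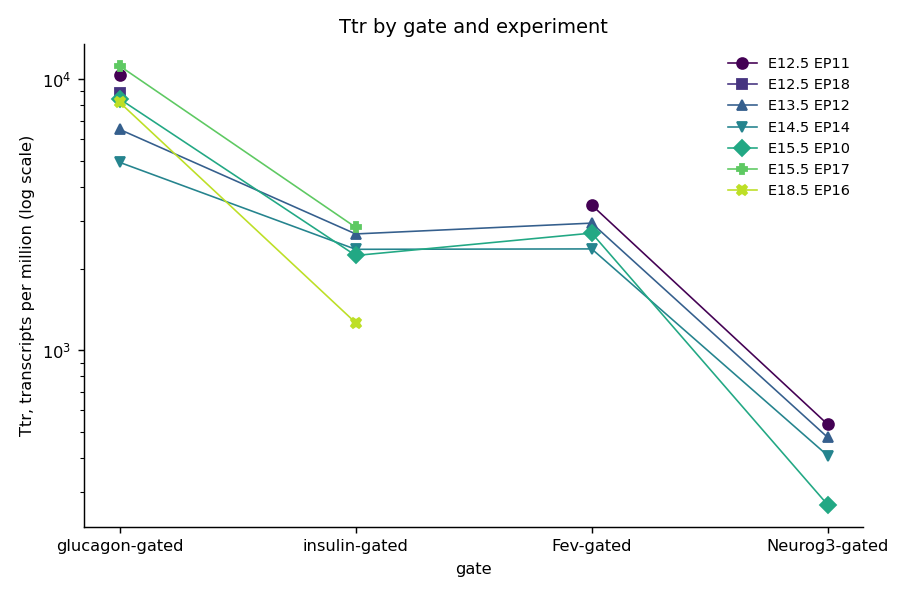
Ttr in CPM on a log scale, by gate and experiment. Each point is the sum over at least 10 cells of 1 experiment, and lines join neighbouring gates of the same experiment. Glucagon-gated points lie at 4924 to 11160 CPM and Neurog3-gated points at 269 to 533 CPM.

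Across stages neither gene's level within glucagon cells had a slope that passed the test. Ttr in glucagon-gated cells had a slope of 0.01 ± 0.07 log2 per day (SE; edgeR, adjusted p = 0.982; 2.63% of 10524 genes called, 1.54% higher and 1.09% lower), and in insulin-gated cells -0.15 ± 0.09 (adjusted p = 0.360; 5.5% of 10409 called, 4.11% higher and 1.38% lower). Without EP17 the insulin-gated slope was -0.16 with adjusted p = 0.0152, and without EP16 it was 0.08. Gcg in alpha-like clusters had a slope of 0.17 ± 0.09 (adjusted p = 0.432; 1.56% of 10471 called, 1.02% higher and 0.535% lower). Without EP18 it was 0.35 (adjusted p = 0.00464), and with the E12.5 cluster that the marker rule left unnamed it was 0.09 (2.81% of 11191 called, 1.6% higher and 1.21% lower). The mean Gcg share in glucagon-gated cells, which the gate itself bounds from below, was 3.96% in EP11, 4.72% in EP18, 4.12% in EP12, 3.73% in EP14, 4.29% in EP10, 5.32% in EP17 and 6.77% in EP16. The EP16 value rests on 15 cells. In EP11, 37.4% of these cells stood at the ceiling, against 3.85% to 25.9% in the other experiments, so the EP11 level is cut the most.

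Within a plate, cells with more Gcg tended to have more Ttr, loosely. Over the 7 plates with at least 10 glucagon-gated cells, Spearman's rho across cells ranged from 0.14 (EP12, 40 cells) to 0.50 (EP18 MIP-GFP, 99 cells). In EP14 it was 0.38 over 50 cells, but 0.08 over the 36 below the Gcg ceiling. Cells of a plate share library and depth, and both values are shares of the same total. The median cell held between 8.15 (EP18 live) and 23.0 (EP11 MIP-GFP) Ttr transcripts per 100 of Gcg. Every glucagon-gated cell on these plates held a Ttr transcript.

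Glucagon cells with a second hormone were few, and most lay in EP17 and EP16. Of 610 cells with Gcg at 1% or more, 34 (5.57%, Wilson 95% interval 4.02% to 7.69%) also held insulin (Ins1 plus Ins2) at 1% or more. These were 16 of 35 such cells on the EP17 MIP-GFP plate (45.7%, 30.5% to 61.8%), 9 of 14 on the EP16 MIP-GFP plate (64.3%, 38.8% to 83.7%) and 7 of 7 on the P6-coded plate. On the E12.5 MIP-GFP plates it was 0 of 261 and 0 of 102, which allows shares of up to 1.15% and 2.94%. The MIP-GFP plates of EP12 and EP10 had 1 of 41 and 1 of 59, so EP10 and EP17, both at E15.5, stand apart. The live plates of EP17 and EP16 had 0 of 5 and 0 of 6. The median Gcg cell held 0.908% insulin on the EP17 MIP-GFP plate, against 0.0127% on its live plate, and 1.33% on the EP16 MIP-GFP plate, against 0.0828% on its live plate. The 7 Fev-gated cells of the EP17 MIP-GFP plate held a median of 0.570% insulin, and the part of plate background in the shared cells was not tested. EP17 was shallow, with a median of 8017 transcripts per cell, and EP16 and EP17 MIP-GFP plates held too few non-epithelial cells to measure the background of insulin there.

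Ghrl, the ghrelin gene, reached 1% in 8 of the 610 cells (1.31%, 0.666% to 2.57%) and Ppy, the pancreatic polypeptide gene, in 2 (0.328%, 0.0900% to 1.19%). Both Ppy cells were on the EP16 MIP-GFP plate, and 4 of the 8 Ghrl cells were on the E12.5 MIP-GFP plates. Sst, the somatostatin gene, did so in 0, which allows up to 0.492%. At any level, insulin was detected in 68.6% of the Gcg cells of EP11 MIP-GFP, at a median of 0.00638% of transcripts. Immune-like cells of that plate held it in 13.9%. On other MIP-GFP plates the shares were 70.6% of Gcg cells against 30.2% of immune-like cells in EP18. They were 92.7% against 71.4% in EP12 and 100% against 97.9% in EP14. Detection at low level must therefore be read against the background of the plate.

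**Figure D4:**
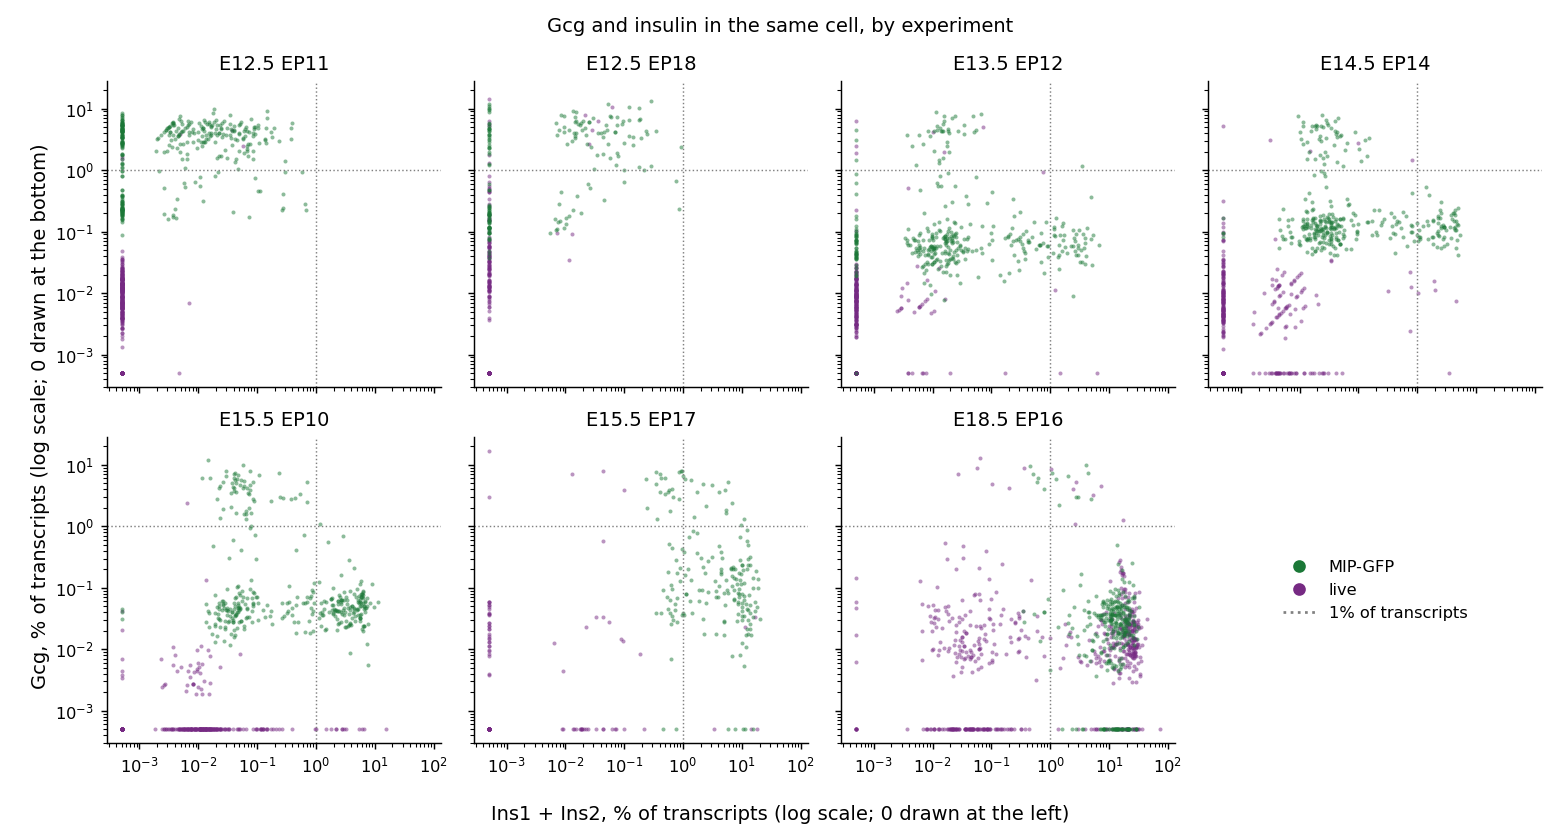
Gcg against insulin (Ins1 plus Ins2), each as percent of the transcripts of the same cell on log scales, by experiment, with 0 drawn at the edge. Dotted lines mark 1%. The upper right corner is empty in both E12.5 experiments and holds 16 cells of EP17 and 16 of EP16.

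Against non-epithelial cells of the same experiment, cells with Gcg at 1% or more held more insulin by 3.72 ± 1.22 (SD, 7 experiments), more Ghrl by 1.64 ± 1.13 and more Ppy by 2.72 ± 1.51 on the log2 scale above. Each was higher in 7 of 7 experiments (exact sign-flip permutation p = 0.0156, the smallest 7 experiments allow, and 0.0365 adjusted over 7 results; 0.0729 with any 1 experiment left out). Most Gcg cells lay on MIP-GFP plates and most non-epithelial cells on live plates, so plate background enters these values. On MIP-GFP plates alone the differences were 1.81 ± 1.00 for insulin, 1.41 ± 1.31 for Ghrl and 1.93 ± 0.52 for Ppy, higher in 5 of 5 experiments each (exact permutation p = 0.0625, the smallest possible). With the median over cells in place of the mean, all 3 calls were lost after adjustment. Insulin was still higher in 7 of 7 experiments, with the exact permutation p unchanged at 0.0156 and an adjusted value of 0.109. Ppy was higher in 4 of 7 (adjusted exact permutation p = 0.175) and Ghrl in 2 of 7 (0.50).

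The converse comparison turned on the plates. Gcg in insulin-positive cells differed from that in non-epithelial cells by 3.46 ± 1.37 over both sorts (higher in 5 of 5 experiments; exact permutation p = 0.0625, the smallest possible). Among MIP-GFP plates alone the difference was 0.56 in EP10, 0.51 in EP12 and 0.06 in EP14. For Ttr it remained 4.89, 5.85 and 4.34 on those plates, against 6.12 ± 0.46 over both sorts. On live plates a Gcg transcript was found in 0 of 13 insulin-gated cells of EP10, 1 of 3 of EP12, 4 of 5 of EP14, 2 of 5 of EP17 and 13 of 20 of EP16. EP10 was also the live plate with the lowest share of cells holding a Gcg transcript, at 15.6%.

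Genes with roles around the pair were read in the same fits. A list of 20 islet transcription factors held factors of alpha and beta cells and others shared by endocrine cells. Of these, 18 were tested between glucagon- and insulin-gated cells, and 7 were higher and 9 lower, where 15% of all genes were higher and 17% lower (median log2 -0.27, against 0.00 over all genes). The lower ones with the largest differences were Pdx1 (-3.15), Nkx6-1 (-2.65) and Pax4 (-2.17), factors known for their part in beta cells. Irx1, an Iroquois homeodomain factor, took 336 to 574 CPM in glucagon-gated cells and 4.92 to 18.6 in insulin-gated cells (log2 difference 5.26 ± 0.14, adjusted p = 5.07e-16). Pou3f4, a POU homeodomain factor, differed by 5.44 and Irx2 by 4.87. These homeodomain factors were not used by the gate. Against Fev-gated cells 19 factors were tested, 3 higher and 5 lower (4.59% and 6.03% over all genes), with Irx1 higher by 2.26 ± 0.34 and Pax4 at -2.59 ± 0.28.

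Of 8 proglucagon-processing genes, 4 were higher and 1 lower in glucagon-gated than in insulin-gated cells (15% and 17% over all genes). The levels given here are of the 5 experiments with both gates. The one lower was Pcsk1 (61.9 to 110 CPM, against 352 to 735 in insulin-gated cells; log2 -2.46 ± 0.14, adjusted p = 2.12e-11). Pcsk2 stood at 1788 to 3181 CPM in glucagon-gated cells, against 1995 to 2307 in insulin-gated cells. Dpp4, a peptidase that inactivates GLP-1, was higher by 3.40 ± 0.22. Between Fev- and Neurog3-gated cells all 8 processing genes and all 12 granule genes were higher, where 16.9% of all genes were higher and 17.3% lower. Of glucagon family receptors, 3 were tested: Gcgr was lower in glucagon-gated cells (-2.29 ± 0.29) and Vipr1 higher (2.63 ± 0.45). Of 12 granule genes, 1 was higher and 8 were lower in glucagon-gated than in insulin-gated cells, beside the same 15% and 17%. Resp18 was the one higher (1.38 ± 0.11), and Scg2, a secretogranin, had a log2 difference of -1.92 ± 0.12.

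Of 25 genes of retinol and thyroid hormone transport and action, 9 were tested between glucagon- and insulin-gated cells, and 4 were higher and 0 lower (15% and 17% over all genes). Rbp4, the retinol carrier that binds transthyretin, took 1488 to 3097 CPM in glucagon-gated cells, against 835 to 1999 in insulin-gated cells of the same 5 experiments (log2 0.53 ± 0.09). Slc16a10, an amino acid and thyroid hormone transporter, was higher by 1.13 ± 0.10, and Dio1, a deiodinase, by 1.67 ± 0.35. Rbp4 was also higher, by 3.96 ± 0.29, in Fev- than in Neurog3-gated cells, where 2 of 8 tested genes of the list were higher and 4 lower (16.9% and 17.3% over all genes). Against Fev-gated cells, 2 of 8 were higher in glucagon-gated cells (4.59% over all genes), Slc16a10 (1.04 ± 0.16) and Rbp4 (0.34 ± 0.09).

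Hepatocyte genes were higher beside Ttr in glucagon-gated than in insulin-gated cells. Of 14, 8 were tested between glucagon- and insulin-gated cells and 6 were higher and 0 lower (15% and 17% over all genes), among them Fgb, a fibrinogen chain (6.29 ± 0.59), Afp, alpha-fetoprotein (5.98 ± 0.38), and Apoa1, an apolipoprotein (5.95 ± 0.85). These differences rest on low levels. In insulin-gated cells Apoa1 was at 0 in all experiments but EP16, Fgb in EP12 and EP17, and Afp in EP16. Glucagon-gated cells of EP14 also held no Apoa1. The largest alpha-like cluster (324 cells) held Fgb at 4.74 CPM, Afp at 3.63 and Apoa1 at 0.474, against 217, 244 and 30.6 in the unnamed cluster of 321 cells. The unnamed cluster of 165 cells, mostly of the EP11 live plate, had 0 glucagon-gated cells. It held Fgb at 50.5 CPM, Afp at 585 and Apoa1 at 35.2. Alb stood at 350 CPM there, against 11.1 in the cluster of 321 cells. In the 5 experiments with both gates the summed level of the 14 was 1935 to 3719 CPM in glucagon-gated cells, against 875 to 2062 in insulin-gated cells. It was 6221 and 6091 CPM in glucagon-gated cells of EP11 and EP18, and 5472 CPM in Fev-gated cells of EP11. Rbp4 is one of the 14, and its levels given above make up much of the sums in those 5 experiments. The sums therefore do not stand for the other members. Alb, the albumin gene, stood at 0 to 19.5 CPM in glucagon-gated cells, where Ttr stood at 4924 to 11160, and Ahsg, the fetuin-A gene, was at 0 in each experiment but EP11. The list's part in the Ttr difference was not tested.

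Over 57 sums of plate and cluster class with at least 10 cells, the 5 genes most like Gcg were Irx1 (Pearson r 0.873 on log2 values), Irx2 (0.838), Gast (0.808), Pyy (0.804) and Tmem27 (0.786). Those most like Ttr were Akr1c12 (0.906), Tbc1d30 (0.898), Pcbd1 (0.884), Rbp4 (0.881) and Capsl (0.879). Gcg and Ttr correlated at 0.571. Irx1 and Irx2 are also among the markers that named the alpha-like class, so their rank is partly set by how the classes were named. Unnamed clusters, with the Gcg-rich one of 321 cells, were not in the sums. The sums share plates, depth and background, so these values are descriptions.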

How the data were processed

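Pancreatic cells were sequenced by SORT-seq, per the labels' protocols, and the submitters' processing notes name BWA, Seurat and the mm10 build without roles. The deposited values are estimated counts, transcripts per gene and well that the authors corrected for UMI collisions. They equal the correction applied to whole UMI numbers within 0.01 for 100% of values, and were rounded for count tests. The table has 19788 rows, of which 89 are spike-ins and 0 are mitochondrial. 1536 wells whose names match no sample's labels and 4 of 58 libraries without an experiment number were not used. No 2 cells held identical values.

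Transcripts were summed over cells of an experiment, sort, gate or cluster class with at least 10 cells, and tested with edgeR 4.0.16 in R 4.3.3 (quasi-likelihood test, TMM scaling, filterByExpr, Benjamini-Hochberg adjustment over all genes tested, threshold 0.05). Sort was tested with stage as a covariate, gates with the experiment as block. The experiment number pairs sorts and gates, since it marks cells of the same experiment in the labels. The main sort test did not use that pairing, and an alternative with the experiment as block did. DESeq2 1.42.0 was an alternative. Levels against background used an exact two-sided sign-flip permutation test over experiments. The scripts were tested on simulated data.

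Cells were clustered in scanpy 1.11.5 (2000 variable genes, 15 neighbours, resolution 1) without Gcg, Ttr, the other hormones and cell cycle genes. A cluster was named where at least 3 markers of a list were 2-fold higher and in 25% of its cells, unless its 10 leading genes held more markers of another list. That rule was chosen after seeing the data, and other names would move class values. Named genes were Gcg, Ttr, the partner hormones, up to 4 members per list with the largest differences past the threshold, and the 5 genes most like each member. Pcsk2, Alb, Ahsg and Rbp4 levels were given for their roles after their values were seen. Outside this rule, Pdx1, Nkx6-1 and Pax4 were named as the lower factors with the largest differences between glucagon- and insulin-gated cells. Members and lists were chosen with earlier results of these data known. Wilson intervals (95%) and limits from a count of 0 (3 counts) cover counting error only.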

Additional observations from a re-analysis of the deposited data

Results flagged for a closer look

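Among 15 sets of experiment values examined, 1 held an experiment far from the rest. Ppy in cells with Gcg at 1% or more exceeded its level in non-epithelial cells by 5.82 (log2) in EP16 at E18.5, against 1.31 to 3.23 in the other 6 experiments. The EP16 value rests on 27 Gcg cells over the MIP-GFP plate, the live plate and the P6-coded plate, and on 169 non-epithelial cells. Both cells with Gcg and Ppy at 1% or more came from the EP16 MIP-GFP plate. Without EP16 the mean difference was 2.20. Chance alone flags some sets when 15 are examined.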

How the results depend on the processing

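Of 336 recomputed values, 287 kept their direction and side of the threshold, 33 lost the call, 4 gained it and 12 changed sign. The sort and gate differences kept both under each alternative that gave a value. With the experiment as replicate block the sort difference was 3.42 for Gcg and 2.12 for Ttr. Without that block the Ttr difference between glucagon- and insulin-gated cells was 1.64 (edgeR, adjusted p = 0.000104), and no call of a gate comparison changed. Stage slopes were the least stable. For Gcg in MIP-GFP sums the slope was 1.00 with stages from titles, 0.25 without the conflicting plates, -0.45 with observed UMIs, and -0.59 to -0.44 when leaving out 1 experiment. For Ttr it was 0.68 with titles and 0.32 without the conflicting plates, while DESeq2 (-0.30, adjusted p = 0.0201) and the authors' kept wells (-0.36, adjusted p = 0.0411) passed the threshold, and leaving out 1 experiment gave -0.32 to -0.22. For Gcg in live sums it was 0.24 in the authors' kept wells, 0.02 with observed UMIs and -0.21 to 0.21 leaving out 1 experiment. For Ttr in glucagon-gated cells it was -0.01 with no low-count filter and -0.01 to 0.04 leaving out 1 experiment, and in insulin-gated cells -0.21 to 0.08. For Gcg in alpha-like clusters it was 0.07 to 0.35.

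Against background, insulin, Ghrl and Ppy in Gcg cells differed by 4.71, 0.89 and 2.33 with the median over cells. That ended the 3 calls, for insulin through the adjustment alone (unadjusted exact permutation p = 0.0156 with mean and median). On MIP-GFP plates alone, an alternative chosen after seeing the data, the 3 differed by 1.81, 1.41 and 1.93. Leaving out 1 experiment gave 3.33 to 3.87, 1.35 to 1.83 and 2.20 to 2.95, where the exact permutation p can go no lower than 0.03125, so fewer samples end these calls. Gcg in acinar- and duct-like cells was 0.19 on live plates alone. The cause of the other changes was not tested. The authors' kept wells held too few non-epithelial cells to give these values. The number of genes called over all genes moved past 1.5 times in 7 of 17 alternatives for the MIP-GFP slope (1604 genes, 0 to 2796; at 0, with titles, 215 genes had unadjusted p under 0.05), and from 760 genes to 8 without EP16 and 1798 with DESeq2 for the live slope. It ranged from 218 to 2049 around 1180 for glucagon- against Fev-gated cells, from 700 to 4037 around 3549 for Fev- against Neurog3-gated cells, from 0 to 988 around 277 for the glucagon-gated slope (356 with unadjusted p under 0.05 at 0), from 0 to 1133 around 572 for the insulin-gated slope (432 at 0), and from 1 to 452 around 163 for the alpha-like slope. Depth limits EP17 and EP18 most, whose plates have the lowest median transcripts.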
